A study of Mus musculus with 18 samples.

Results

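The comparison set iPax7 progenitors against embryonic myoblasts, across every gene with enough reads to test. iPax7 cells are muscle progenitors made in culture from mouse embryonic stem cells: Vcam1-positive, Flk1-negative cells were sorted from embryoid bodies, then plated and expanded for 3 passages with doxycycline and bFGF. In this field iPax7 is the name of a line in which doxycycline switches on a Pax7 transgene, and the labels give no strain or further allele for it. Embryonic myoblasts (Emb) were taken at E10.5 (days of embryonic development) from mice labelled My5Cre Rosa26YFP, a Cre line crossed to a reporter that turns on a yellow fluorescent protein in cells with past Cre activity, and the labels speak of freshly sorted tissue-derived cells. Each group had 3 libraries, 6 of the 15 bulk RNA sequencing libraries of a series of 18 samples. The other bulk groups were iPax3 progenitors, fetal myoblasts (Fet) and neonatal satellite cells (Neo). Of 47728 listed genes, 17571 had enough counts to be tested. The labels do not say whether libraries came from separate cultures or embryos. The p-values thus measure only a spread between libraries, which may be technical. That spread was estimated over all 15 bulk libraries and not from the 6 compared alone. Cultured and freshly sorted cells also differ in handling, and that difference cannot be told apart from the difference between the groups.

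Skeletal muscle arises from somite progenitors that express the paired-box factors Pax3 and Pax7. Myf5 and Myod1 commit these cells to muscle, and Myog, with the Mef2 factors, turns on the contractile genes. Embryonic progenitors rely mainly on Pax3, whereas fetal progenitors and the satellite cells of later muscle rely mainly on Pax7. Hox genes record where along the body axis a cell arose. Myf5 is also transcribed in a few places outside muscle, among them parts of the nervous system and precursors of brown fat.

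The 6 libraries were sequenced to 11804719 to 27768610 counts. iPax7 replicate 1 stood apart from its group: over the tested genes its log2 levels had a Spearman correlation of 0.8401 with replicate 2 and 0.8416 with replicate 3, which reached 0.9734 with each other. Emb pairs lay between 0.8165 and 0.8458, and Emb replicate 1 held 14400 genes at 1 CPM or more (CPM is the count scaled to the normalised library size), against 10191 and 10352 in replicates 2 and 3. For this reason the counts of genes, the lists and the fold changes are given with all 3 iPax7 libraries and again without replicate 1, and the effect of Emb replicate 1 is given beside the counts of genes. No pair of libraries of one group agreed within counting error.

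iPax7 replicate 1 carried the genes of pluripotent stem cells and little of the muscle programme. Its Tdgf1, a Nodal co-receptor, stood at 1020 CPM, against 0.270 and 0.285 in the other iPax7 libraries. Dppa5a stood at 1080 CPM against 0.405 and 0.569. The pluripotency factor Sox2 was at 505 CPM against 0.338 and 0.455, and the RNA-binding protein Lin28a at 357 CPM against 0.169 and 0.341. L1td1 and Utf1 completed the 6 genes furthest above the other libraries among tested genes with at least 50 CPM on the higher side. Furthest below them by the same rule were Col19a1, Slc26a7, Myl1, Dio2, Myog and Mstn: Myl1, a myosin light chain, stood at 0.147 CPM against 77.4 and 119, and Mstn, the muscle growth inhibitor myostatin, at 0.0733 CPM against 27.7 and 99.0. Of genes with at least 50 CPM in replicate 1, 116 lay more than 16-fold above the other iPax7 libraries, and of genes with at least 50 CPM in those, 148 lay more than 16-fold above replicate 1.

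The marker list of pluripotency shows the same split. Of its 30 genes, 19 were tested and 8 were called higher in iPax7 than in Emb with all libraries, but 1 without replicate 1. Across all tested genes 8.51% were called higher with all libraries and 7.48% without replicate 1. The listed genes summed to 8460 CPM in iPax7 replicate 1, 262 and 307 CPM in replicates 2 and 3, and 329 to 468 CPM in Emb, where much of the sum is Trim28, a broadly expressed co-repressor at 224 to 282 CPM. Nanog, a core pluripotency factor, stood at 511, 1.05 and 0.683 CPM in iPax7 and 0.0773, 0 and 0 CPM in Emb. Its call (log2 fold change 12.53 ± 2.63, adjusted p = 0.0072) was lost without replicate 1 (4.86 ± 1.79, adjusted p = 0.083). The gene still called was Lefty1, a Nodal antagonist, at 108, 2.90 and 2.33 CPM against 0 in all 3 Emb libraries. Pou5f1, picked out here after its values were seen, was left untested by the filter on low counts, with 550, 0.203 and 0.341 CPM in iPax7 and 0 in Emb. Leaving out Emb replicate 2 or 3 left 2 of the 8 calls. The germline list went the same way, with 3 of 10 tested members called higher (Sycp3, Sycp1 and Tex11) and none without replicate 1 or without Emb replicate 2 or 3.

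With all libraries, 2468 of 17571 genes (14%) differed between iPax7 and Emb at an adjusted p under 0.05 in edgeR's quasi-likelihood test, 1495 higher (8.51%) and 973 lower (5.54%) in iPax7. Without iPax7 replicate 1 there were 2274 (12.9%), 1314 higher (7.48%) and 960 lower (5.46%). Both analyses called 1814 genes in the same direction and none in opposite directions, which is 73.5% of the first set and 79.8% of the second. Calls made only with replicate 1 numbered 654, of which 413 were higher, and calls made only without it numbered 460, of which 232 were higher. All 3 iPax7 libraries lay above all 3 Emb libraries for 3971 genes (22.6%) and below them for 1832 (10.4%). The median log2 fold change over all genes was 0.36, and 0.18 without replicate 1.

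The number of calls leaned on single libraries and on the pooled estimate of spread. Leaving out Emb replicate 1 gave 4985 calls, and 4684 when iPax7 replicate 1 was also left out. Leaving out Emb replicate 2 gave 1514 and Emb replicate 3 gave 1518, whereas leaving out iPax7 replicates 2 or 3 gave 1585 or 1432. Fitted on the 6 libraries alone, without the spread of the other 9, the test called 249 genes, 71 higher and 178 lower, of which 248 were among the 2468. Emb replicate 1 held 1 CPM or more of 1540 of the 3766 tested genes that had no count in Emb replicates 2 and 3, and 1475 tested genes had no count in any Emb library. In bulk samples fewer cells of a type and less RNA per cell cannot be told apart.

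**Figure D1:**
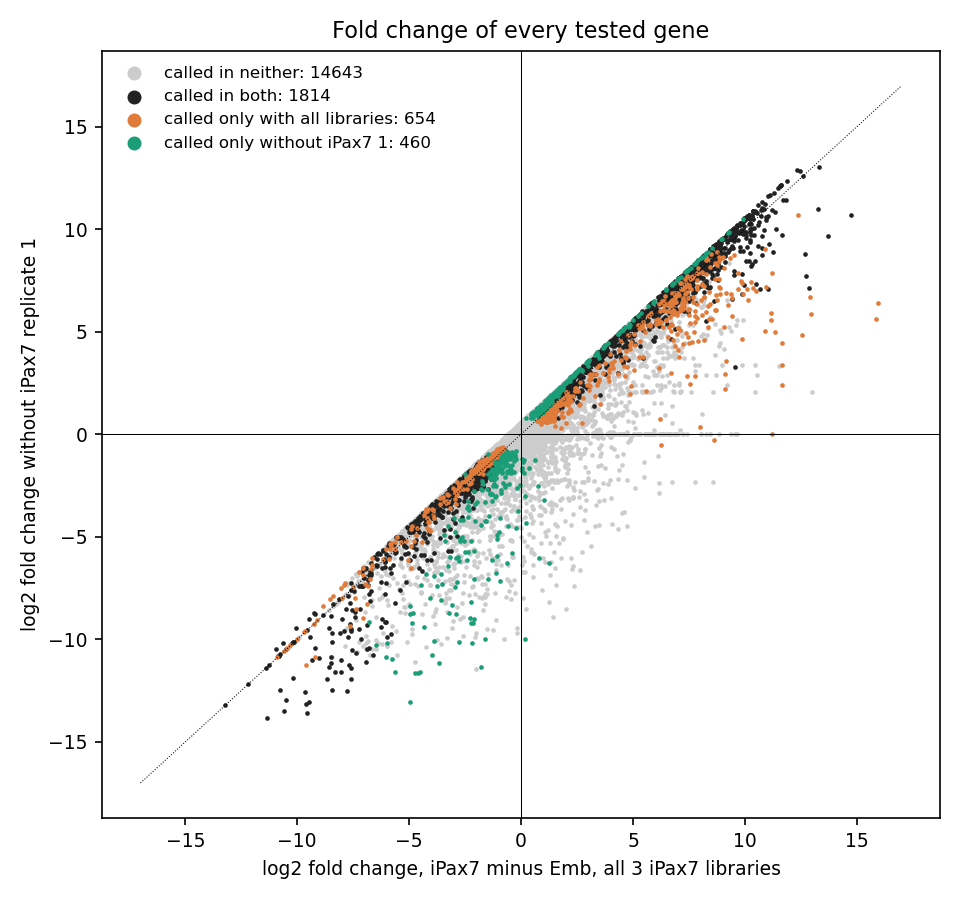
Each point is 1 of 17571 tested genes, with the log2 fold change of iPax7 over Emb from all libraries on the x axis and the same without iPax7 replicate 1 on the y axis; the dotted line marks equal values. The 1814 genes called in both analyses run along that line at both ends, and points well below it had a lower fold change without replicate 1.

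Among the progenitor regulators, Pax3 was far lower in iPax7. Pax3 (ENSMUSG00000004872, chromosome 1, 78101267 to 78197134, GRCm38) stood at 1.10, 3.75 and 2.05 CPM in iPax7 and 140, 64.1 and 82.8 CPM in Emb. The groups did not overlap, and the log2 fold change was -5.37 ± 0.83 (adjusted p = 0.00074), or -5.03 ± 0.90 without replicate 1 (adjusted p = 0.0023). Pax7 (ENSMUSG00000028736, chromosome 4, 139737062 to 139833528) stood at 0.989, 111 and 349 CPM in iPax7 and 20.5, 33.2 and 29.7 CPM in Emb. Replicates 2 and 3 lay above every Emb library and replicate 1 below them all. The fold change did not pass with all libraries (2.47 ± 1.12, adjusted p = 0.15) and did without replicate 1 (3.05 ± 0.67, adjusted p = 0.0075). Reads from an inducing transgene, if one is counted here, cannot be told apart from reads of endogenous Pax7.

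The list of progenitor regulators had 24 tested members, of which 10 were lower and 1 higher, against 5.54% and 8.51% of all genes. Without replicate 1 the shares of all genes were 5.46% and 7.48%. The 10 include Dach1, a co-repressor that works with the Eya factors, at 0.256, 1.05 and 1.20 CPM against 88.6, 82.8 and 88.4 CPM (log2 fold change -6.70 ± 0.67, adjusted p = 1.9e-05, and without replicate 1 -6.27 ± 0.63, adjusted p = 1.6e-05). They also include Meox2, a homeobox gene of somites, at 0.550, 0.0338 and 0 CPM against 61.3, 24.4 and 31.9 CPM. Sim1 stood at 0.0366, 0.0676 and 0 CPM against 46.9, 17 and 34.6 CPM. Lbx1, a marker of progenitors that migrate into the limb, had 0.183, 0 and 0 CPM against 11.2, 92 and 58.8 CPM, so no iPax7 library came near an Emb library in any of these genes. The 1 higher member was Pitx3, at 0.293 CPM in replicate 1, 10.7 CPM in replicate 2 and more in replicate 3, with 0 in every Emb library (at least 147-fold, adjusted p = 0.0078, or 0.003 without replicate 1), named here after its values were seen. Folds given as at least a value set the empty group at 3 counts in all and cover counting error only. Without replicate 1 the list had 9 lower and 4 higher members; the added higher members were Pax7, Eya4 (3.22, 270 and 174 CPM against 24.3, 95.4 and 56.3) and Cxcr4 (0.586, 24.6 and 58.4 CPM against 11.6, 2.46 and 12.4). Tcf15, a somite factor, was called lower there but not with all libraries, at 27.8, 0 and 0.114 CPM against 237, 60 and 61 CPM.

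The determination factors did not show the gap seen for Pax3. Myf5 stood at 1.10, 83.2 and 87.9 CPM in iPax7 and 21.4, 26.3 and 35.0 CPM in Emb, and its difference passed only without replicate 1 (1.63 ± 0.49, adjusted p = 0.039; with it 1.06 ± 0.89, adjusted p = 0.46). Myod1 stood at 0.0366, 27.1 and 43.9 CPM against 5.64, 30 and 43.3 CPM. Myog stood at 1.58, 563 and 517 CPM against 108, 610 and 784 CPM. For both, iPax7 replicates 2 and 3 overlapped Emb, with Myod1 in replicate 3 just above the highest Emb library, and replicate 1 lay below Emb; neither passed the test (Myod1 -0.15 ± 1.31, adjusted p = 0.96; Myog -0.47 ± 1.11, adjusted p = 0.82). Without replicate 1 their values were 0.43 ± 1.04 and 0.11 ± 0.65, with 95% intervals of -1.77 to 2.63 for Myod1 and -1.28 to 1.5 for Myog. Myf6 had at most 0.232 CPM in any of the 6 libraries and was not tested.

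Of 23 tested determination and differentiation factors 2 were higher and none lower, or 5 and none without replicate 1 and 4 and none without Emb replicate 2. With all libraries that is a share near the 8.51% of all genes called higher, which was 7.48% without replicate 1. Mef2d, a partner of the myogenic factors, stood at 71.0, 79.5 and 64.3 CPM in iPax7 and 13.6, 20 and 25.2 CPM in Emb, a difference held by all 3 iPax7 libraries (1.87 ± 0.35, adjusted p = 0.003, and without replicate 1 1.88 ± 0.37, adjusted p = 0.0037). Mylpf, a fast-muscle myosin light chain, stood at 31.1, 183 and 272 CPM against 16.1, 1.94 and 2.87 CPM (4.54 ± 0.95, adjusted p = 0.0061, and without replicate 1 5.03 ± 0.88, adjusted p = 0.0016). The Mef2d and Mylpf calls were both lost in the fit on the 6 libraries alone and in another test, limma voom. The acetylcholine receptor subunits Chrna1 and Chrng passed only without replicate 1. Chrna1 had 1.43, 384 and 260 CPM against 0.309, 28.1 and 3.90 CPM.

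**Figure D2:**
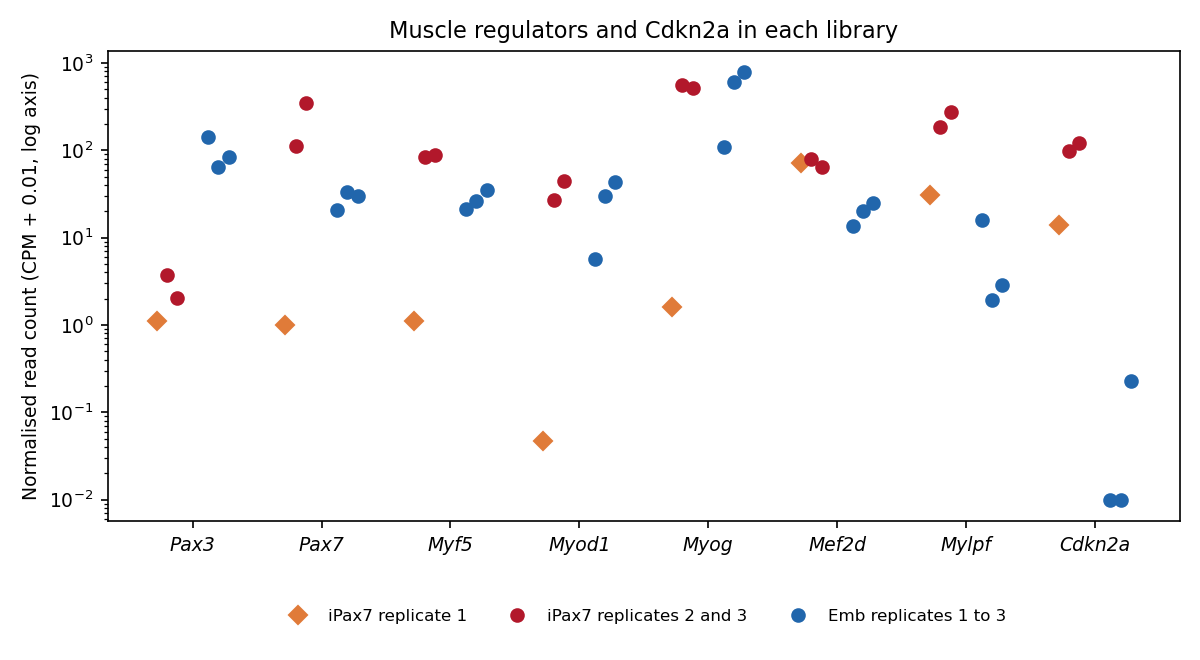
Normalised read count (CPM + 0.01, log axis) of 8 genes in each library: diamonds are iPax7 replicate 1, red circles iPax7 replicates 2 and 3, blue circles the 3 Emb libraries. Pax3 is below every Emb library in all iPax7 libraries, Pax7, Myf5, Myod1 and Myog are low in iPax7 replicate 1 alone, and Mef2d, Mylpf and Cdkn2a are above every Emb library throughout.

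Some contractile genes were higher in iPax7, most of them with their highest levels in replicates 2 and 3. Of 45 tested sarcomere and contraction genes 10 were higher and none lower with all libraries, and 16 higher and none lower without replicate 1. The shares of all genes were 8.51% higher and 5.54% lower, or 7.48% and 5.46% without replicate 1. The list's median log2 fold change was 2.31 and 2.88, against 0.36 and 0.18 over all genes. The 10 became 17, 6 and 6 without Emb replicates 1, 2 and 3, and 5 and 6 without iPax7 replicates 2 and 3. The listed genes summed to 1140, 7360 and 7600 CPM in iPax7 and 1230, 2480 and 2660 CPM in Emb, so replicate 1 lay below every Emb library in this sum and replicates 2 and 3 above them all. Jph2, which ties the cell membrane to the calcium store, stood at 9.60, 118 and 115 CPM against 1.08, 0.229 and 0.0736 CPM (7.47 ± 1.18, adjusted p = 0.0008, and without replicate 1 8 ± 1.01, adjusted p = 0.00011). Myom2, a protein of the sarcomere's M-band, stood at 6.12, 75.8 and 158 CPM against 0.773, 0.0572 and 0 CPM (8.19 ± 1.75, adjusted p = 0.0068, and without replicate 1 8.74 ± 1.61, adjusted p = 0.0023). Tnnt3, fast troponin T, stood at 1.43, 202 and 185 CPM against 2.32, 0.114 and 0.0736 CPM, with replicate 1 inside the Emb range. With limma voom the calls of Jph2, Myom2 and Tnnt3 were all lost. Those of Myom2 and Tnnt3 were also lost in the fit on the 6 libraries alone. Other members had a wide overlap: the slow troponin Tnnt1, named after its values were seen, had 23.5, 345 and 451 CPM against 46.0, 254 and 459 CPM (0.11 ± 0.98, adjusted p = 0.96, and without replicate 1 0.66 ± 0.86, adjusted p = 0.68). Tpm1, Ttn and Atp2a1 passed only without replicate 1; Ttn, the giant spring protein titin, had 7.62, 363 and 325 CPM against 51.3, 18.7 and 42.6 CPM.

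Promoters of contractile genes called higher are shown because those found all hold one motif. Myogenic factors such as Myod1 and Myog bind E-boxes, of which CAGCTG is a preferred form. Taken from the RefSeq promoter table for GRCm38.p6, the 250 bases before the transcription start were present for 37 of the 45 genes, and 16 of these (43.2%) hold CAGCTG, which reads the same on both strands, against 12.1% of the promoters of 11705 tested genes. All 8 promoters found for the 10 genes higher in both analyses hold it. The genes were chosen by their calls and the motif was singled out after the search, so this is a description. The nearer comparison for the 8 is the 43.2% of their own list. CAGGTG, searched on both strands, was in 18.9% of the list and 15.3% of all, a Mef2-type motif in 2.7% and 2.65%, and TATAAA, also on both strands, in 18.9% and 6.66%. The list's promoters also had a median of 5 CG dinucleotides, against 15 over all genes. Below are the 4 with the smallest adjusted p among the 8, written 5′ to 3′ on the gene's strand with each match to a searched motif in capitals (CAGCTG, and in Casq1 also CAGGTG); a match is not evidence of binding. Acta2 encodes smooth-muscle actin, which early muscle cells also make, and Casq1 a calcium-binding protein of the calcium store. Their positions are chr2:163397994-163398243 minus strand for Jph2, chr7:127211358-127211607 plus strand for Mylpf, chr19:34255374-34255623 minus strand for Acta2 and chr1:172219896-172220145 minus strand for Casq1.
Jph2: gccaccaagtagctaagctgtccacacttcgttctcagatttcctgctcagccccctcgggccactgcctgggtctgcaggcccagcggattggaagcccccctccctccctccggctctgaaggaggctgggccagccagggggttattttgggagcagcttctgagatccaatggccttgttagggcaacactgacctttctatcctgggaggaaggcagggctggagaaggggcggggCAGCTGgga
Mylpf: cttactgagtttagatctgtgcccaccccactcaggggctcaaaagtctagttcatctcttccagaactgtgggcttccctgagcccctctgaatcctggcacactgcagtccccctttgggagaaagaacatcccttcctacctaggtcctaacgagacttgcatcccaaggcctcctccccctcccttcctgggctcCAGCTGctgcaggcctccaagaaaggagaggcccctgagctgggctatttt
Acta2: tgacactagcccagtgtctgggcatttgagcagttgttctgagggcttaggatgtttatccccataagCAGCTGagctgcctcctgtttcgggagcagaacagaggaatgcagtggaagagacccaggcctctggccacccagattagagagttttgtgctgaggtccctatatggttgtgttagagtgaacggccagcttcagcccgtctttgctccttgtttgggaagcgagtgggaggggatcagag
Casq1: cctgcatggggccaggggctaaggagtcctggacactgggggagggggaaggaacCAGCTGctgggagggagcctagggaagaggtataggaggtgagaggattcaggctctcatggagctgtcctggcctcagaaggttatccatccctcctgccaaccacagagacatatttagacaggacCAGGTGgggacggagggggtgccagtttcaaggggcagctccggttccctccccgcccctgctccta
The first matching base lies 9 bases before the start in Jph2, 51 in Mylpf, 182 in Acta2 and 195 in Casq1. Acta2 stood at 159, 656 and 607 CPM against 10.9, 72.5 and 82.1 CPM, and Casq1 at 1.8, 1.45 and 2.33 CPM against 0 in every Emb library.

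**Figure D3:**
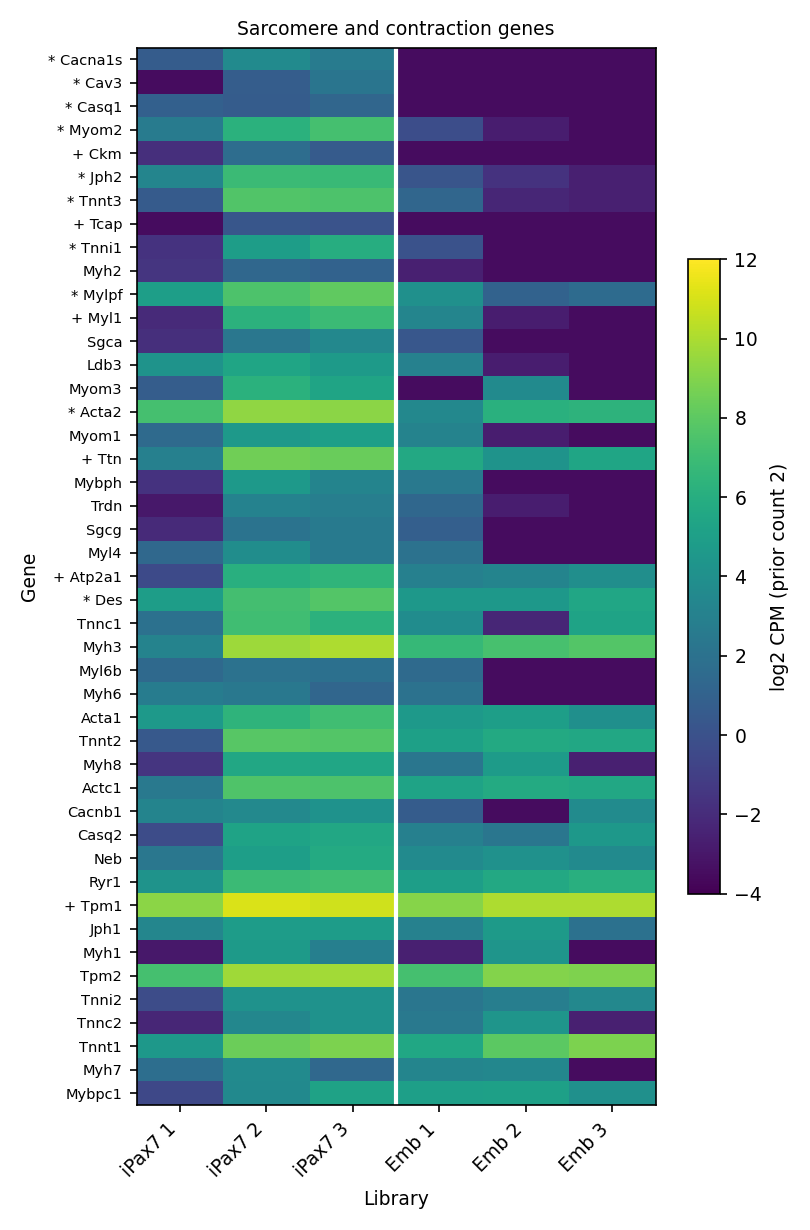
log2 CPM (prior count 2, colour scale) of the 45 tested sarcomere and contraction genes in the 3 iPax7 and 3 Emb libraries, sorted by fold change; a star marks genes called in both analyses and a plus those called only without iPax7 replicate 1. Columns iPax7 2 and 3 are the brightest over most genes, and iPax7 1 resembles Emb in many.

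Of 27 tested satellite cell markers 5 were higher and 3 lower, and 10 and 2 without replicate 1. The shares of all genes were 8.51% higher and 5.54% lower, or 7.48% and 5.46% without replicate 1. The 2 markers lower without replicate 1 are a share near that of all genes. Only 2 were higher without iPax7 replicate 2 and 3 without iPax7 replicate 3. Cav1, which coats membrane caveolae, stood at 32.7, 26.8 and 65.1 CPM against 3.01, 1.09 and 1.77 CPM (4.42 ± 0.46, adjusted p = 2.7e-05, and without replicate 1 4.57 ± 0.46, adjusted p = 1.6e-05). Sdc4, a heparan sulfate receptor, stood at 123, 125 and 85.0 CPM against 14.4, 41.0 and 29.6 CPM. Hey1, a Notch target, was lower, at 4.03, 13.2 and 3.13 CPM against 19.8, 63.5 and 54.9 CPM, as was Gas1. Both named genes that were higher are also expressed in many cells outside muscle. The Cav1 and Sdc4 calls were lost in the fit on the 6 libraries alone and with limma voom. Megf10, a phagocytic receptor of satellite cells, passed only without replicate 1, at 6.08, 473 and 314 CPM against 110, 134 and 135 CPM. Of 13 tested genes of the fetal programme 1 was higher, Pygm, and 2 were without replicate 1, a share near the 8.51% of all genes; the Pygm call was lost without Emb replicate 2 or 3 or iPax7 replicate 2 or 3.

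The E proteins, Id and Twist factors pair with or block the myogenic factors. In both analyses 7 of 20 tested members were lower and 1 higher. The shares of all genes were 5.54% lower and 8.51% higher, or 5.46% and 7.48% without replicate 1. Twist1, an inhibitor of myogenesis, stood at 3.66, 1.42 and 1.76 CPM in iPax7 and 209, 246 and 324 CPM in Emb (-6.82 ± 0.96, adjusted p = 0.00039, and without replicate 1 -7.35 ± 1.18, adjusted p = 0.0013). The E proteins Tcf3 (109, 88.4 and 103 CPM against 178, 278 and 215) and Tcf4 (62.1, 241 and 189 CPM against 361, 606 and 670) differed less, but every iPax7 library lay below every Emb library. The calls of Tcf3 and Tcf4 were lost in the fit on the 6 libraries alone.

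Hox genes were near 0 in iPax7. Of 37 tested members 23 were lower and none higher with all libraries, and 18 and none without replicate 1, against 5.54% and 5.46% of all genes called lower. Leaving out iPax7 replicate 2 or 3 gave 12 or 13. The members summed to 28.9, 18.4 and 39.3 CPM in iPax7 and 1220, 1390 and 1180 CPM in Emb. Hoxa9 stood at 0.733, 0.0338 and 0.285 CPM in iPax7 and 122, 118 and 131 CPM in Emb, with Emb libraries close together (-8.44 ± 0.79, adjusted p = 1e-05, and without replicate 1 -9.71 ± 0.79, adjusted p = 2e-06). Hoxc4 stood at 1.47, 0.169 and 0.114 CPM against 139, 103 and 109 CPM. Hoxa10 and Hoxa7 had the same pattern, at 0.169 to 0.403 CPM against 33.5 to 70.0 CPM and 0.0338 to 1.39 CPM against 69.2 to 84.5 CPM.

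All 4 Hox clusters took part. Lower members numbered 7 of 11 in the A cluster, 4 of 8 in B, 5 of 9 in C and 7 of 9 in D, and without replicate 1 they numbered 6, 2, 6 and 4. By number, 8 of 11 tested genes of groups 1 to 4 were lower, 7 of 11 of groups 5 to 8 and 8 of 15 of groups 9 to 13, or 5, 7 and 6 without replicate 1. Hoxb9 and Hoxd8 kept the most reads in iPax7 replicates 2 and 3 (7.26 and 17.6 CPM for Hoxb9), and neither passed the test; both were picked after their values were seen. In the other groups Hoxa9 averaged 0.211 ± 0.0685 CPM in iPax3, 27.3 ± 4.29 in Fet and 63.9 ± 11.0 in Neo (SD, n = 3).

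**Figure D4:**
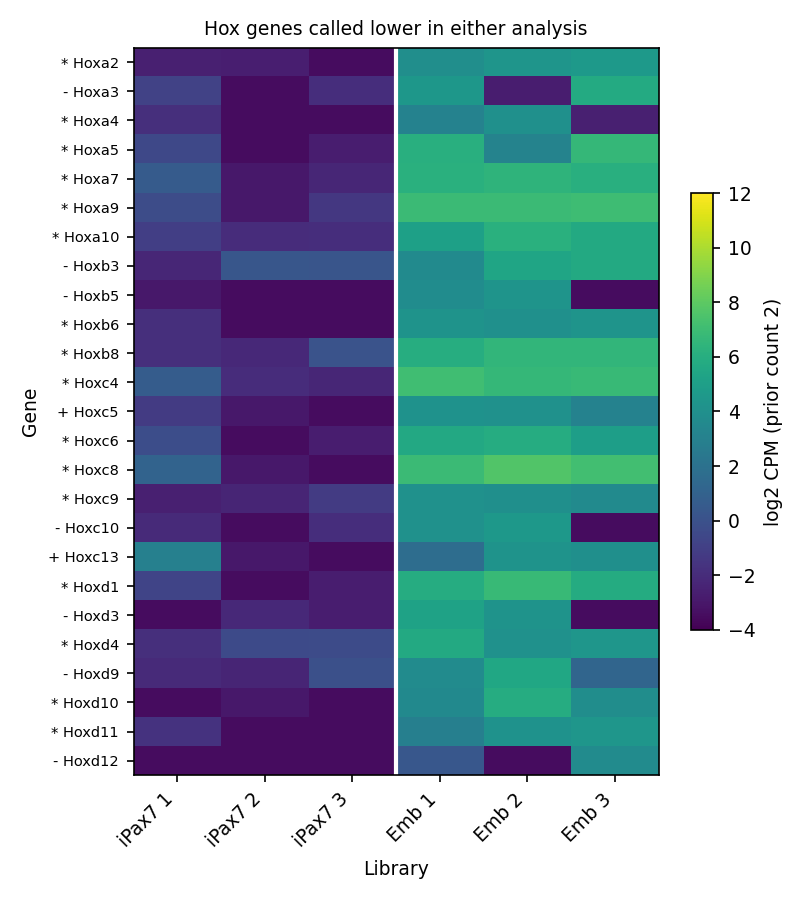
log2 CPM (prior count 2, colour scale) in the 6 libraries of the Hox genes called lower in at least 1 of the analyses, ordered by cluster and number; a star marks genes called in both analyses, a minus only with iPax7 replicate 1 and a plus only without it. The iPax7 columns are dark for nearly every gene, and the Emb columns are bright for most, with gaps in single Emb libraries.

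The factors that pattern somites and limb followed. Of 48 tested members 16 were lower and 1 higher, and 19 and 1 without replicate 1. Over all genes 5.54% were called lower and 8.51% higher, or 5.46% and 7.48% without replicate 1. The higher gene of the list was Hand1, at 0.183, 21.5 and 9.62 CPM against 0.0773, 0.114 and 0.221 CPM, with replicate 1 inside the Emb range. Its call was lost without any 1 of Emb replicates 2 and 3 and iPax7 replicates 2 and 3. Foxc1, a forkhead factor of the paraxial mesoderm, stood at 3.55, 17.5 and 14.2 CPM against 342, 303 and 259 CPM (-4.68 ± 0.57, adjusted p = 9.3e-05, and without replicate 1 -4.24 ± 0.50, adjusted p = 5.8e-05). Zic1 stood at 0.623, 16.1 and 6.26 CPM against 406, 608 and 659 CPM. Meis2, a Hox cofactor, stood at 5.68, 31.4 and 25.8 CPM against 291, 303 and 347 CPM. Pax9, a marker of the sclerotome, the part of the somite that forms cartilage, stood at 0, 0.101 and 0.114 CPM against 65.7, 111 and 61.3 CPM. In Foxc1, Zic1, Meis2 and Pax9 no library of one group reached the other.

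Among genes called in both analyses without overlap and with a mean of at least 20 CPM in Emb, the largest differences downward included genes outside the muscle lineage. Ppp1r17 had no count in iPax7 and 27.3, 96.2 and 40.8 CPM in Emb (at least 1360-fold lower, adjusted p = 0.00069, or 0.0016 without replicate 1). Shh, the signal of notochord and floor plate, had no count in iPax7 and 12.1, 33.2 and 35.1 CPM in Emb (at least 665-fold lower, adjusted p = 0.009, or 0.021 without replicate 1). The rest of the 12 were Myt1, Trim9, Hoxd10, Arg1, Uncx, Nkx6-1, Pax9, Hmx1, Lbx1 and Foxd1. Nkx6-1, a factor of the ventral neural tube, had 0.0366, 0 and 0 CPM against 5.33, 17.9 and 42.1 CPM.

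Many markers of nerve and cartilage were lower in iPax7, and those of connective tissue went both ways. Over all genes 5.54% were called lower and 8.51% higher, or 5.46% and 7.48% without replicate 1. Of 29 tested neural and Schwann markers 14 were lower and none higher, and 14 and 1 without replicate 1, the 1 being Nes, an intermediate filament also made by muscle progenitors; without iPax7 replicate 3 the lower calls were 7. Nefm, a neurofilament, stood at 2.89, 0.473 and 0.968 CPM in iPax7 and 220, 474 and 406 CPM in Emb (-7.98 ± 0.95, adjusted p = 9.3e-05, and without replicate 1 -9.02 ± 1.10, adjusted p = 0.00012). Pou3f2 and Nhlh2, factors of neurons, were at or under 0.811 CPM in iPax7 and between 39.2 and 69.6 CPM in Emb. Elavl3, an RNA-binding protein of neurons, passed only without replicate 1; of the iPax7 libraries, replicate 1 alone held it above 1 CPM.

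Of 22 tested tendon and cartilage markers 12 were lower and 1 higher, and 14 and 1 without replicate 1. The shares of all genes were 5.54% lower and 8.51% higher, or 5.46% and 7.48% without replicate 1. Col2a1, the main collagen of cartilage, stood at 25, 8.17 and 9.68 CPM against 931, 951 and 580 CPM (-5.84 ± 0.52, adjusted p = 5.6e-06, and without replicate 1 -6.52 ± 0.51, adjusted p = 1.4e-06). Sox9, the master factor of cartilage, stood at 0.513, 4.19 and 5.75 CPM against 161, 221 and 261 CPM. Among 25 tested fibroblast and connective tissue markers 8 were lower and 4 higher, or 8 and 3 without replicate 1. Without iPax7 replicate 2 they were 5 and 3, and without replicate 3 they were 5 and 4. Lum, a matrix proteoglycan, stood at 0.623, 0.405 and 0.512 CPM against 62.7, 69.6 and 103 CPM (-7.24 ± 0.46, adjusted p = 3.4e-07, and without replicate 1 -7.42 ± 0.54, adjusted p = 6e-07), and the receptor Pdgfra at 6.30, 0.946 and 1.20 CPM against 253, 356 and 300 CPM. Gsn, an actin-severing protein, went the other way, at 60.8, 288 and 307 CPM against 12.1, 28.4 and 31.3 CPM. The neural markers summed to 1480 to 2260 CPM in Emb against 818 to 1110 CPM in iPax7, and the tendon and cartilage markers to 1540 to 2140 against 149 to 193 CPM. These markers move with the lower Hox and patterning genes, and their part in those results was not tested.

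Blood and vessel markers were sparse in both groups. Erythroid markers summed to 40.4 CPM in Emb replicate 1 and to 0.286 and 0.294 CPM in the other Emb libraries, with the embryonic globin Hbb-y at 25, 0.114 and 0.221 CPM. Endothelial markers summed to 38.8 to 83.9 CPM in Emb and to 182, 32.3 and 59.0 CPM in iPax7, with 3 of 18 tested markers lower and 1 higher, against 5.54% and 8.51% of all genes. The lower calls were 4 without iPax7 replicate 1, 0 without iPax7 replicate 2, 2 without iPax7 replicate 3 and 1 without Emb replicate 1. Immune markers summed to at most 51.4 CPM in any of the 6 libraries, reached in iPax7 replicate 1.

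Genes of epithelia and mesothelium were higher in iPax7, 11 of 31 tested and none lower, or 9 and none without replicate 1. The shares of all genes were 8.51% higher and 5.54% lower, or 7.48% and 5.46% without replicate 1. The listed members summed to 1470, 1070 and 909 CPM in iPax7 and 123, 106 and 227 CPM in Emb. Krt8, a keratin of simple epithelia, stood at 73.4, 162 and 95.2 CPM against 0.773, 0.0572 and 0.221 CPM (8.34 ± 0.71, adjusted p = 5.6e-06, and without replicate 1 8.57 ± 0.68, adjusted p = 1.5e-06). Msln, a surface protein of mesothelium, stood at 6.08, 89.5 and 143 CPM against 0.232, 0 and 0.0736 CPM. Perp, a desmosome protein and p53 target, stood at 54.9, 372 and 281 CPM against 6.34, 12.9 and 1.10 CPM. In iPax3, made by the same culture steps, Krt8 averaged 297 ± 150 CPM, and in Fet and Neo 1.96 ± 0.249 and 0.202 ± 0.0865 CPM (SD, n = 3).

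The largest differences upward, among genes called in both analyses without overlap and with a mean of at least 20 CPM in iPax7, differed in how even they were across iPax7. Trap1a, Fabp3, Chchd10, Hsf2bp, Smc1b and Lefty1 were highest in iPax7 replicate 1 and had no count in Emb. Trap1a, for example, had 452, 1.59 and 17.9 CPM. Without replicate 1 these genes averaged from 0.813 CPM (Hsf2bp) to 12 CPM (Chchd10), so they met the rule of 20 CPM only through that library. Crip2, a LIM protein, was even across iPax7 at 32.2, 41.8 and 30.9 CPM and was absent from the Emb counts (a fold of at least 513, adjusted p = 8.5e-06, or 8e-06 without replicate 1). Lgals3, the lectin galectin-3, stood at 8.98, 63.1 and 24.0 CPM, Pcgf5, a Polycomb subunit, at 29.7, 22 and 10.6 CPM, and the muscle protein Nrap at 0.476, 61.2 and 26.1 CPM, with no count in Emb. Slc26a7, an anion transporter, stood at 0.293, 167 and 189 CPM against 0.155, 0 and 0.0736 CPM, a ratio of summed counts that rests on 3 reads in Emb. The last of the 12, mt-Atp8, shares bases with mt-Atp6, so its reads cannot be assigned with certainty. Of the 12, only Crip2, Lgals3 and Pcgf5 kept their call with limma voom. In the fit on the 6 libraries alone only Crip2, Lgals3, Chchd10 and mt-Atp8 did.

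Inhibitors of the cell cycle and other genes of the p53 and senescence list were higher in iPax7, 9 of 18 tested and none lower. The shares of all genes were 8.51% higher and 5.54% lower, or 7.48% and 5.46% without replicate 1. Without replicate 1 the list had 7 higher and 1 lower, Cdkn1b, the latter a share near that of all genes. Leaving out iPax7 replicate 2 or Emb replicate 3 gave 5 higher. Cdkn2a (ENSMUSG00000044303, chromosome 4, 89274471 to 89294653) encodes the inhibitor p16 and the p53 activator Arf. It stood at 13.8, 99.3 and 121 CPM in iPax7 and 0, 0 and 0.221 CPM in Emb (10.01 ± 1.22, adjusted p = 0.00016, and without replicate 1 10.51 ± 0.99, adjusted p = 1.8e-05), and it averaged 101 ± 12 CPM in iPax3, 0.295 ± 0.342 in Fet and 0 in Neo. Ccng1, a p53 target, stood at 433, 635 and 508 CPM against 23, 0.972 and 20.7 CPM (5.14 ± 0.74, adjusted p = 0.00051, and without replicate 1 5.27 ± 0.78, adjusted p = 0.00072). Bbc3, a death gene that p53 turns on, stood at 20.8, 4.59 and 4.95 CPM against 0 in all Emb libraries. Mdm2, the inhibitor of p53, stood at 294, 264 and 181 CPM against 93.4, 119 and 137 CPM (1.08 ± 0.27, adjusted p = 0.015, and without replicate 1 0.93 ± 0.27, adjusted p = 0.032).

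The gene counts do not separate the Cdkn2a transcripts, which start at separate promoters. Both promoter stretches are shown for that reason, at chr4:89294620-89294869 and chr4:89282193-89282442, minus strand, GRCm38.p6. The first holds 40 CG dinucleotides and the second 7, and neither holds any of the motifs searched above, so there are no capitals.
Cdkn2a upstream start: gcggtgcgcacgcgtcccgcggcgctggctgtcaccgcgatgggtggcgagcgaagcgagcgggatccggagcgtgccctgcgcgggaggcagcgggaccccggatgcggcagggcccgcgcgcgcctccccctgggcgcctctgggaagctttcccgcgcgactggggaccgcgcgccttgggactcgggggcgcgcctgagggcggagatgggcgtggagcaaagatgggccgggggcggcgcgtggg
Cdkn2a downstream start: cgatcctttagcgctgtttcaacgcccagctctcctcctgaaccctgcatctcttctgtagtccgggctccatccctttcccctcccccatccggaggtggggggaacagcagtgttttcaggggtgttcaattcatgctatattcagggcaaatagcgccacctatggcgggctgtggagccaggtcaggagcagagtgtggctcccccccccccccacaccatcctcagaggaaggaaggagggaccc

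Cell cycle genes showed little net difference, with 4 higher and 2 lower of 46 tested and a median of 0.25. Those shares are near the 8.51% higher and 5.54% lower over all genes. Without replicate 1 the list had 4 higher and 6 lower, with a median of -0.15. Leaving out Emb replicate 2, iPax7 replicate 2 or iPax7 replicate 3 gave 2 higher. Ccne1, a cyclin of S-phase entry, stood at 238, 157 and 180 CPM against 92.2, 48.7 and 49.1 CPM, and Birc5 at 367, 171 and 273 CPM against 472, 975 and 895 CPM. Their calls were lost in the fit on the 6 libraries alone. The summed level of the list was 10600 CPM in iPax7 replicate 1, 5340 and 6280 CPM in replicates 2 and 3, and 6830 to 7650 CPM in Emb.

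**Figure D5:**
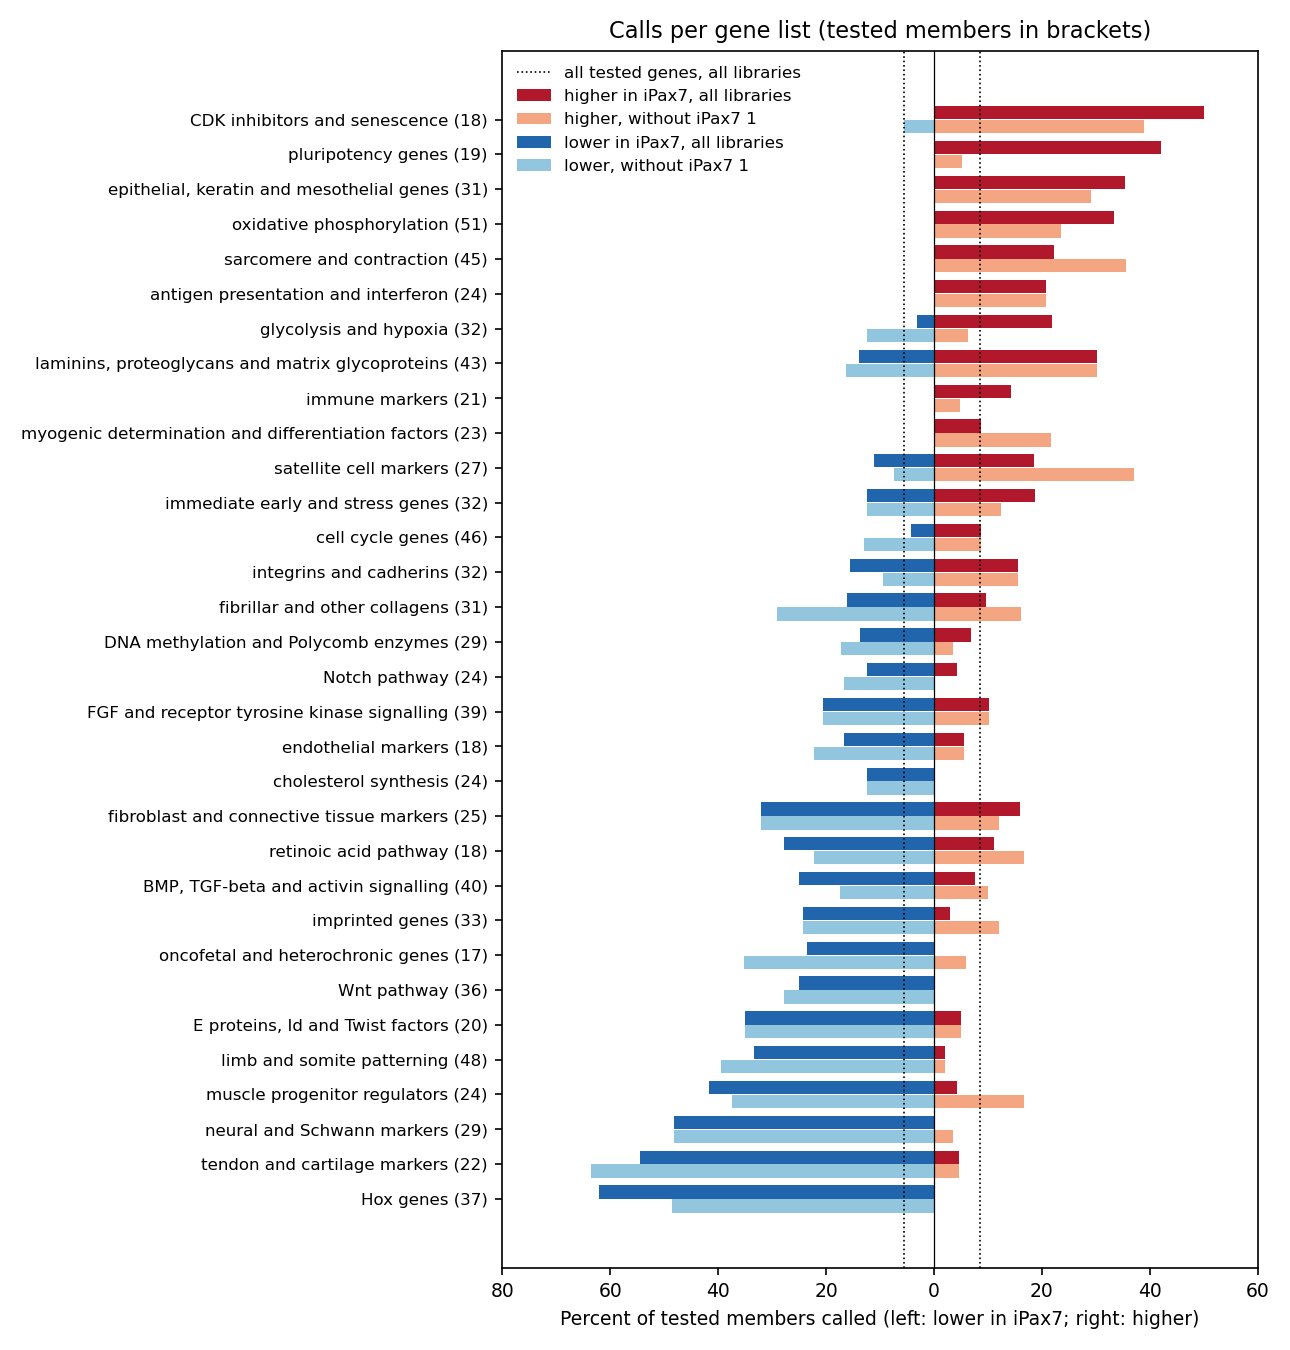
Percent of tested members of each gene list (lists with at least 15 tested members, number in brackets) called higher, to the right, or lower, to the left, in iPax7, with all libraries in dark and without iPax7 replicate 1 in light colours; dotted lines mark the 8.51% and 5.54% of all tested genes. Among the dark bars Hox genes have the longest to the left, and among the light bars tendon and cartilage markers, with 14 of 22 members. The pluripotency list is the one whose right-hand bar shrinks most, from 8 to 1 of 19 members.

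Genes of oxidative phosphorylation were higher in iPax7, 17 of 51 tested and none lower, or 12 and none without replicate 1. The shares of all genes were 8.51% higher and 5.54% lower, or 7.48% and 5.46% without replicate 1. There were 8 higher without Emb replicate 3 and 9 without iPax7 replicate 3. Of 53 listed genes 3, 6 and 8 had no count in Emb replicates 1, 2 and 3, against 1, 0 and 0 in iPax7. The part of these zeros in the difference was not tested. Summed levels were 9300, 8200 and 9670 CPM in iPax7 and 4020, 3890 and 4390 CPM in Emb, so the groups did not overlap. Atp5b, a catalytic subunit of ATP synthase, stood at 2360, 1960 and 1850 CPM against 595, 592 and 561 CPM (1.82 ± 0.21, adjusted p = 6.6e-05, and without replicate 1 1.71 ± 0.21, adjusted p = 6.7e-05). Ndufs1, of complex I, stood at 196, 242 and 222 CPM against 77.0, 66.9 and 54.6 CPM. The median of the list was 1.22, and 1.25 without replicate 1. Glycolysis and hypoxia genes depended on replicate 1. Of 32 tested, 7 were higher and 1 lower with all libraries, and 2 were higher and 4 lower without replicate 1. Those 2 are a share near that of all genes. Leaving out Emb replicates 1, 2 and 3 gave 12, 4 and 3 higher. Aldoa, a glycolytic enzyme, was higher in both analyses, at 1060, 273 and 377 CPM against 156, 66.1 and 58.5 CPM. Pdk1 and Vegfa, both induced by low oxygen, were lower only without replicate 1; Pdk1 had 316, 32.0 and 28.9 CPM against 85.0, 144 and 113 CPM. Of 24 tested cholesterol synthesis genes 3 were lower, Cyp51, Sqle and Hmgcs1, in both analyses, against 5.54% of all genes, and 1 without Emb replicate 3, iPax7 replicate 2 or iPax7 replicate 3.

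Matrix genes were called in both directions, against 8.51% higher and 5.54% lower over all genes. Of 43 tested laminins, proteoglycans and glycoproteins 13 were higher and 6 lower (13 and 7 without replicate 1). Of 31 collagens 3 were higher and 5 lower, with 5 and 9 without replicate 1 and 7 and 7 without Emb replicate 1. Hspg2, the basement membrane proteoglycan perlecan, stood at 248, 451 and 383 CPM against 71.9, 51.2 and 49.1 CPM (2.65 ± 0.33, adjusted p = 0.0001, and without replicate 1 2.86 ± 0.32, adjusted p = 3.4e-05). Mgp, an inhibitor of calcification, stood at 8.10, 21.8 and 7.06 CPM against 0.0773, 0.172 and 0.147 CPM. Hapln1, a link protein of cartilage matrix, stood at 0.256, 0.270 and 0 CPM against 32.4, 18.9 and 15.2 CPM. Col1a1, the main fibrillar collagen, passed only without replicate 1, which held 708 CPM against 21.5 and 12.3 CPM in the other iPax7 libraries, with Emb at 451 to 581 CPM. Among 32 integrins and cadherins 5 were higher and 5 lower, or 5 and 3 without replicate 1, and as few as 2 each way when 1 library was left out (higher without iPax7 replicate 2 or 3, lower without Emb replicate 3); Itgb3 stood at 38.9, 119 and 50.7 CPM against 4.48, 8.75 and 10.4 CPM.

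In the signalling lists more genes were lower than higher with all libraries, against 5.54% lower and 8.51% higher over all genes. Of 36 tested Wnt pathway genes 9 were lower and none higher (10 and none without replicate 1), of 40 BMP, TGF-beta and activin genes 10 and 3 (7 and 4), of 39 FGF and receptor kinase genes 8 and 4 in both analyses, and of 24 Notch genes 3 and 1 (4 and none). Leaving out iPax7 replicate 2 or 3 gave 5 lower Wnt genes, and 5 or 4 lower BMP and TGF-beta genes, with 3 or 4 higher beside them. Leaving out Emb replicate 2 gave 3 lower and 3 higher BMP and TGF-beta genes, so the lower calls of that list were no longer the more frequent. The receptor Fzd7 stood at 79.7, 82.9 and 32.6 CPM against 220, 278 and 294 CPM, and the Wnt antagonist Dkk2 at 1.91, 0.473 and 0.341 CPM against 26.4, 16.3 and 33.0 CPM. Tgfbr1, a TGF-beta receptor, stood at 65.7, 230 and 176 CPM against 708, 1170 and 827 CPM (-2.52 ± 0.38, adjusted p = 0.00051, and without replicate 1 -2.15 ± 0.30, adjusted p = 0.00025). Igf1, the growth factor, stood at 1.25, 21.3 and 18.3 CPM against 183, 369 and 374 CPM. Hes1, a Notch target, stood at 29.7, 38 and 15.7 CPM against 46.5, 92.3 and 152 CPM, a call lost without Emb replicate 3. Of 18 retinoic acid pathway genes 5 were lower and 2 higher, or 4 and 3 without replicate 1, and 2 were lower without iPax7 replicate 2 or 3 and 3 without Emb replicate 2 or 3; Aldh1a3, an enzyme that makes retinoic acid, stood at 0.806, 3.45 and 3.41 CPM against 0 in Emb.

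Oncofetal and imprinted genes were partly lower. The shares of all genes were 5.54% lower and 8.51% higher, or 5.46% and 7.48% without replicate 1. Of 17 oncofetal and heterochronic genes 4 were lower and none higher, and 6 and 1 without replicate 1, the 1 being a share near that of all genes. Gpc3, a fetal growth regulator, stood at 99.2, 65.3 and 108 CPM against 1150, 1560 and 1640 CPM, and Hmga2 at 31.1, 197 and 136 CPM against 613, 1310 and 1400 CPM. Of 33 imprinted genes 8 were lower and 1 higher, and 8 and 4 without replicate 1. The 1 higher with all libraries is a share below that of all genes. The noncoding RNAs Meg3 and Rian, from one imprinted cluster, stood at 233, 175 and 168 CPM against 768, 975 and 823 CPM and at 346, 330 and 295 CPM against 1360, 1870 and 1930 CPM. Peg3 was higher only without replicate 1, at 136, 3940 and 3170 CPM against 1730 to 1770 CPM.

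Antigen presentation and interferon genes were higher in 5 of 24 tested cases and lower in none, in both analyses, among them Tap1 at 15.4, 6.49 and 8.54 CPM against 0.0773, 0 and 0.0736 CPM. Over all tested genes 8.51% were called higher and 5.54% lower. Of 32 immediate early and stress genes 6 were higher and 4 lower, or 4 and 4 without iPax7 replicate 1, and 2 lower without Emb replicate 2 or iPax7 replicate 2. Hspb1, a small heat shock protein, stood at 85.4, 30.3 and 47.6 CPM against 0.0773, 0.0572 and 0 CPM. Fos, an immediate early gene that rises during tissue dissociation, stood at 8.54, 12.1 and 15.9 CPM against 28.9, 79.4 and 180 CPM (-2.98 ± 0.48, adjusted p = 0.00097, and without replicate 1 -2.78 ± 0.56, adjusted p = 0.0048), and the part of dissociation in these results was not tested. Of 29 genes of DNA methylation and Polycomb enzymes 2 were higher, Pcgf5 and Cbx7, and 4 lower, among them Tet3 and Cbx2, or 1 and 5 without replicate 1. Without Emb replicate 1, 5 were higher, and without Emb replicate 3, 1. Leaving out Emb replicate 3 or iPax7 replicate 2 left 1 lower, and iPax7 replicate 3 left 2. The 2 of 29 higher with all libraries are a share near that of all genes.

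Genes called only without iPax7 replicate 1 form a set of their own. With at least 20 CPM in the higher group, among the largest downward were Insm1, Elavl3, Tcf15, Rimklb, Tub, Zswim5 and Ncan. The 8 largest upward by the same rule were Tshr, Cadps2, Lrrn3, Gata3, Pcdhb22, Lix1, Scg2 and Hfe2. Lix1 had 1.36 CPM in replicate 1 and 120 and 131 CPM in the others, against 9.73, 0.0572 and 0.368 CPM. These values are a description, since the genes were chosen by this pattern.

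A smaller set of genes held close levels. For 827 of 17571 genes the 95% interval of the log2 fold change lay within 1 unit of 0, a 2-fold difference either way. They include Ccnd1, which drives entry into the cell cycle, at 63.5, 136 and 95.6 CPM against 113, 88.4 and 111 CPM (-0.08, interval -0.71 to 0.55). They also include the maintenance methyltransferase Dnmt1 at 384, 174 and 184 CPM against 220, 314 and 225 CPM (-0.03, interval -0.81 to 0.75) and the chaperone Hspa8 at 2790, 2760 and 2580 CPM against 3200, 2040 and 1510 CPM (0.27, interval -0.28 to 0.81). These 3 were picked from list members after their values were seen, and for Dnmt1 the interval reached -1.25 without replicate 1.

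Calls were spread over the nuclear genome. The share called higher ran from 6.52% on chromosome 6 to 11.8% on chromosome 19 among the nuclear chromosomes, and the share called lower from 3.31% on chromosome 19 to 6.73% on chromosome 6. Of 27 tested genes of the mitochondrial chromosome 10 were higher (37%) and 1 lower. Of 14376 protein-coding genes 8.67% were higher and 6.3% lower. Processed pseudogenes, copies of spliced transcripts, were called higher far more often than lower, 159 against 13 of 1435; their reads may belong to the parent gene, so these calls are uncertain. Promoters of genes higher in both analyses held a median of 12 CG dinucleotides in 250 bases (735 promoters of 1082 genes) and those of genes lower in both 18 (561 of 732), against 15 for all tested genes. CAGCTG was in 17.6% and 9.98% of them.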

How the data were processed

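Bulk RNA sequencing libraries of 5 groups of 3 were used. The deposited values are raw read counts per gene, one table per library; per the submitters' processing notes, CASAVA 1.8, HISAT2 2.0.2, Subread and featureCounts 1.4.6 were used with the mm10 build. The annotation release, strand setting and handling of reads with several matches are not given in the sources used here. Genes were named from GENCODE M21 (47309 of 47728 IDs matched). From the counts, edgeR 4.0.16 in R 4.3.3 was run with TMM scaling, its default filter on low counts (17571 genes kept) and the robust quasi-likelihood test, fitting all 15 libraries with 1 mean per group and taking iPax7 minus Emb; the other 9 libraries held 516504 to 56275318 counts and share in the estimate of spread. Adjusted p-values are Benjamini-Hochberg values over all tested genes, with a threshold of 0.05; fold changes are log2 with their standard error, and intervals cover 95%. limma 3.58.1 and DESeq2 1.42.0 gave alternatives, with left-out libraries, another filter, other scaling and a replicate block. The test was checked on simulated counts with 50 changed genes at each fold. It recovered 2% of 2-fold, 20% of 4-fold, 64% of 16-fold and 76% of 64-fold changes, with 0 false calls. A gene that did not pass may therefore still differ. The simulated libraries shared 1 spread per gene, and none stood apart from its group as iPax7 replicate 1 does. The 0 false calls therefore do not show how many calls in the real libraries are false. Counting intervals and floors cover counting error only. Members and gene lists were chosen with earlier results of these data known. Genes named were the largest differences both with and without iPax7 replicate 1, the main regulators, up to 4 genes per list with the smallest p and up to 3 gained without that replicate; others are marked where they appear or complete a count. Single-cell samples were not used.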

Additional observations from a re-analysis of the deposited data

How the results depend on the processing

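The counts of higher, lower and all differing genes, 1495, 973 and 2468, moved with the test. DESeq2 gave 2313, 1698 and 4011. limma voom with quality weights gave 498 higher and 1477 in all. A filter of 10 CPM gave 844 higher. The 6 libraries alone gave 71, 178 and 249, and without iPax7 replicate 1 they gave 182, 338 and 520. With 1 library left out at a time, higher genes ran from 812 to 3611, lower genes from 546 to 1374 and all from 1432 to 4985. Leaving out both iPax7 replicate 1 and Emb replicate 1 gave 3272, 1412 and 4684. Fitting the replicate block gave 826 higher, 691 lower and 1517 in all. Same-numbered libraries had residual correlations of 0.0767, 0.0609 and 0.0108, and differently numbered ones ran from -0.0921 to 0.0212. With 3 libraries per group these values cannot decide whether the numbers pair the samples. RLE scaling gave 1461 and 1005.

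The median log2 fold change of all genes, 0.36, was 0.70 without Emb replicate 1, 0.18 without iPax7 replicate 1, 0.69 with voom and 0.15 at 10 CPM; the cause was not tested. Of 227 named genes that were tested, 101 lost their call with the 6 libraries alone, 60 with voom and 16 with the block, and RLE scaling changed none. Some named genes changed direction, and the cause was not tested. Sox2 went from 2.31 to -5.52 with voom. Kit went from 1.23 to -5.62 with voom, -6.26 without iPax7 replicate 1 and -5.68 without that library and Emb replicate 1, and ran up to 1.81 with single libraries left out. Pdk1 went from 0.14 to -1.69, -1.91 and -2.08 under the same alternatives and up to 0.61, and Tet1 from 0.77 to -2.08, -2.53 and -2.89 and up to 1.31. A gene with 0 counts may still be expressed, and the number of genes seen did not follow depth. Emb replicate 1, the shallowest of the 6 libraries at 11804719 counts, had a count for 17048 genes. Emb replicates 2 and 3, with 18266914 and 14228051 counts, had one for 12850 and 12944. The cause was not tested.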
